A study of Mus musculus with 12 samples.

Results

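Described here are 82 genes that encode proteins of the cytosolic ribosome in mouse fibroblasts, 50 of the large subunit and 32 of the small subunit. The rule that picks them uses only symbol and annotation, but it was chosen with earlier results of these data known. Each gene is annotated as protein-coding. Its symbol is *Rpl* or *Rps* with a number, then at most 1 of the letters a, k, l, x and y, then possibly a further number. The symbols *Rplp0*, *Rplp1*, *Rplp2* and *Rpsa* are also taken. The members made up 82 of the 28995 genes in the tables, and all 82 were listed in the table of each comparison. The rule takes in 5 paralogues (*Rpl3l*, *Rpl7l1*, *Rpl22l1*, *Rpl39l* and *Rps27l*). It leaves out a few other genes of the ribosome, among them *Fau*, *Rack1*, *Rpl36al* and *Rps27rt*, which were kept as a list of their own.

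The ribosome translates messenger RNA into protein, with a small subunit that reads the message and a large subunit that joins the amino acids. Its proteins are needed in near-equal amounts, and cells are known to control most of them together. Their messenger RNAs typically begin with a C followed by a run of pyrimidines, the terminal oligopyrimidine or TOP motif, through which mTOR and the binding protein Larp1 adjust their translation and stability. Mouse ribosomal protein genes have also left many retrocopies, spliced copies of the message put back into the genome, and these complicate the assignment of reads.

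The fibroblasts came from hindlimb skeletal muscle of wild-type C57 BL/10 mice 3 days after birth. They were kept in charcoal-stripped serum, which lacks most steroids, and then treated for 48 hours with 1 µM aldosterone, 1 µM spironolactone or DMSO as vehicle. Aldosterone is a steroid hormone that activates the mineralocorticoid receptor, and spironolactone is an antagonist of that receptor. All 3 groups shared genotype, age, serum and treatment time, and each held 4 libraries from 2 mice with 2 replicate plates per mouse, the cells of each mouse having been pooled and re-plated. The labels give each library a sample number and a biological replicate number (written here as 2_1 for sample number 2, replicate 1) without naming the one that stands for the mouse. The p-values therefore rest on the spread between these plates and may be partly technical. They also draw on the spread of other genes, so they need not follow that of a single gene.

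The libraries held between 19136923 and 30219185 reads on genes. The 8 fibroblast markers summed to between 48700 and 53500 CPM (reads at a library total of 1000000) with vehicle, 42100 and 46400 CPM with aldosterone and 45400 and 51200 CPM with spironolactone, led by *Col1a1*, and none was at 0. The vehicle and aldosterone ranges of this sum did not overlap. The 6 macrophage markers summed to at most 14.3 CPM and the 4 Schwann cell markers to at most 19.1 CPM. The sum of 8 skeletal muscle markers, mostly *Acta1*, was 8.84 to 18.2 CPM with aldosterone, 22.3 to 32.3 CPM with vehicle and 22.8 to 35.8 CPM with spironolactone. The sum of 5 endothelial markers was 28.6 to 30.9 CPM with aldosterone, mostly *Tek* and *Kdr*, and 20 to 22.8 CPM in the other libraries. The 4 mural cell markers summed to 261 to 387 CPM with aldosterone and 342 to 449 CPM in the other libraries, and 4 erythroid markers had no row in the tables. *Pax7* was at 0 in the aldosterone and spironolactone libraries, *Ckm* in the vehicle and aldosterone libraries, *Ptprc* in the aldosterone libraries and *Adgre1* in the vehicle and spironolactone libraries. The part of these levels in the results below was not tested.

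Sequences around the transcription start show the feature these genes are known for. RefSeq starts of the GRCm38.p6 build were found by symbol for 62 of the 82 genes. Each line gives the 15 bases before the annotated start and the 15 bases from the start on, 5′ to 3′ on the gene's strand, and capitals mark the longest run of at least 5 pyrimidines at or next to the start. The first 5 lines are genes whose start is a C followed by at least 4 pyrimidines, and they are shown because they range from *Rps18*, which was higher with aldosterone than with vehicle whichever library was left out, to *Rps10*, which has few reads of its own. The next lines are *Rplp0* and *Rpl13*, which rose with aldosterone and have no such start in this annotation, and 3 paralogues.
Rps18, chr17:33955651-33955680, minus strand: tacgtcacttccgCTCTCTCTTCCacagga
Rplp2, chr7:141447636-141447665, plus strand: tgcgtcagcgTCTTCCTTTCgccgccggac
Rpl38, chr11:114668565-114668594, plus strand: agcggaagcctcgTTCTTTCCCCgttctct
Rps27, chr3:90213634-90213663, minus strand: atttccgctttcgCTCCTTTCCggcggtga
Rps10, chr17:27635230-27635259, minus strand: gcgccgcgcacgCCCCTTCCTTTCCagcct
Rplp0, chr5:115559452-115559481, plus strand: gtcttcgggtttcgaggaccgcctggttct
Rpl13, chr8:123102335-123102364, plus strand: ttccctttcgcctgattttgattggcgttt
Rpl22l1, chr3:28805493-28805522, plus strand: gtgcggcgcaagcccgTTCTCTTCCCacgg
Rpl7l1, chr17:46782642-46782671, minus strand: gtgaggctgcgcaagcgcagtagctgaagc
Rps27l, chr9:66946071-66946100, plus strand: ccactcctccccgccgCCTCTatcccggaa

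A C followed by at least 4 pyrimidines at the annotated start was found in 13 of the 62 genes (21%), against 813 of all 27025 genes with such windows (3.01%). A run of at least 8 pyrimidines within 20 bases of the start was found in 30 of the 62 (48.4%), against 18.4% of all genes. Motifs were then searched on both strands from 250 bases before to 50 bases after each start. The ETS core CCGGAAG was in 26 of the 62 genes (41.9%, against 9.93% of all genes), the GC box GGGCGG in 38 (61.3%, against 38.2%), and the YY1 core AAGATGG in 10 (16.1%, against 7.28%). The ETS core and the YY1 core share the letters AAG and can overlap, and the first 5 letters of the other strand of the ETS core, CTTCCGG, can lie within a pyrimidine run. The TATA box letters TATAAA were in 7 (11.3%, against 15.7%), and the steroid receptor half-site TGTTCT in 10 (16.1%, against 21.3%). The 13 genes with the C and pyrimidine start had a median log2 fold change with aldosterone against vehicle of 0.25, and the other 49 matched genes one of 0.27.

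In vehicle-treated cells the levels of these genes differed widely. In reads per kilobase of gene length at a library total of 1000000 reads, the most abundant were *Rplp1* (2331 ± 197, SD, n = 4), *Rplp0* (1135 ± 54.1) and *Rps3a1* (788 ± 56.8). *Rplp0*, *Rplp1* and *Rplp2* encode the acidic stalk of the large subunit, which recruits translation factors, and *Rplp2* stood at 144.5 ± 12.7 on the same scale. *Rps3a1* encodes a core protein of the small subunit. This scale depends on the annotated gene length, which is 499 bases for *Rplp1* and 2072 for *Rplp2*, with coding lengths of 345 and 348. In normalised counts with vehicle, *Rplp1* averaged 27860 and *Rplp2* 7174. By counts *Rps3a1*, at 18436, was below the longer gene *Rpl4*, at 27268. At the other end, *Rpl3l*, the striated muscle paralogue of *Rpl3*, had at most 4.03 normalised counts in any library, and 81 of the 82 genes reached a mean of 10. *Rpl24* and *Rps10*, both core genes, had means of only 68.9 and 98.6 normalised counts over the 12 libraries. *Rpl24* was picked out after its values were seen.

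The 82 genes together took a small and variable share of the reads. It was 3.53%, 3.4%, 3.5% and 3.04% in the vehicle libraries (mean 3.37% ± 0.225, SD, n = 4). With aldosterone it was 3.59%, 4.06%, 3.94% and 4.24% (3.96% ± 0.274), and with spironolactone 3.61%, 4.14%, 3.71% and 3.58% (3.76% ± 0.259). Every library of either treatment lay above every vehicle library, and the aldosterone and spironolactone libraries overlapped. In bulk samples a change in cell number or type and a change in RNA per cell cannot be told apart.

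Most of the genes moved as a block from library to library. The median over the 82 genes of each gene's deviation from its own mean over 12 libraries, on the log2 scale, was -0.05, -0.13, -0.09 and -0.32 in the vehicle libraries. It was 0.01, 0.19, 0.10 and 0.20 with aldosterone, and -0.04, 0.19, -0.01 and -0.06 with spironolactone. Vehicle 2_2 was the lowest of all, and aldosterone 1_1 was the lowest with aldosterone. The SD of a gene over the 12 libraries had a median of 0.163 on the log2 scale, and 0.0534 once the median of the library was taken off. Large and small subunit genes kept together, since their medians differed by at most 0.02 in any library. In each treatment the library with the most reads (vehicle 1_1, aldosterone 2_2 and spironolactone 1_2) also had the highest median, and the share of mitochondrial reads was 1.52% to 1.61% with vehicle, 1.6% to 1.78% with aldosterone and 1.43% to 1.63% with spironolactone. The part of depth in these medians was not tested.

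**Figure D1:**
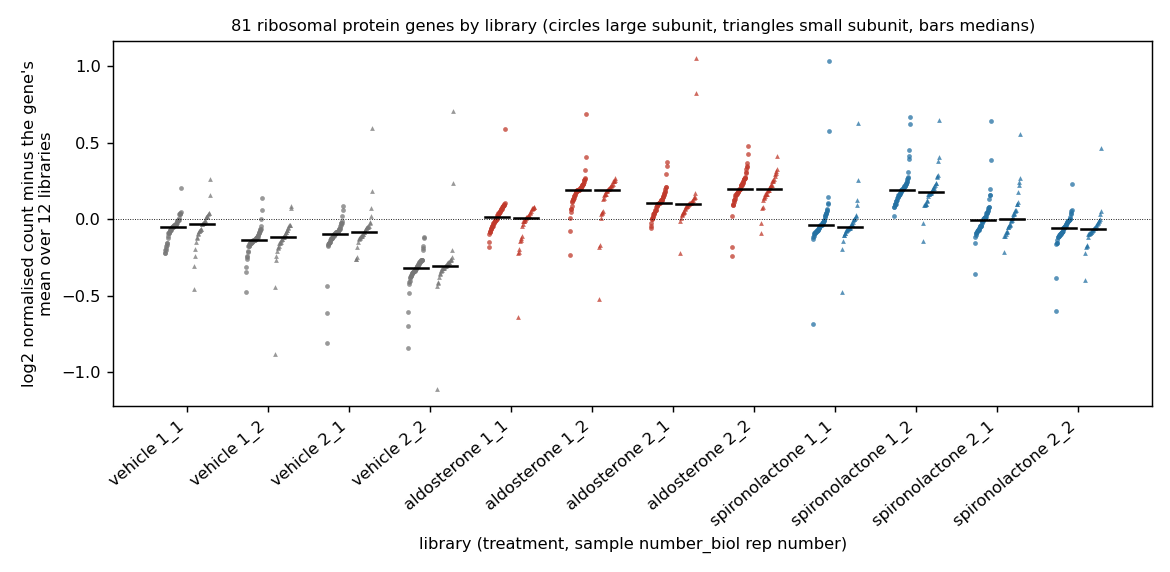
Each point is 1 of 81 ribosomal protein genes (without *Rpl3l*) in 1 library, plotted as its log2 normalised count minus its mean over the 12 libraries (vertical axis), with circles for large and triangles for small subunit genes and bars at the medians. The bars of both subunits sit at nearly the same height in every library, lowest in vehicle 2_2 at about -0.32 and highest in aldosterone 2_2 at 0.20, while a few genes scatter far from the rest.

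The first question was whether aldosterone changed these genes against vehicle. Most of them were higher, by a small and similar amount. With limma, an adjusted p no larger than 0.05 and no minimum fold change, 59 of the 82 genes were higher with aldosterone and 0 were lower. Over all 27319 genes tested, 5.68% were higher and 4.74% lower, and 14.2% of the 4670 other well-expressed genes were higher and 10% lower (a mean of at least 1000 normalised counts, which 77 members also reached). Without adjustment, 72 members were higher and 0 were lower at a p under 0.05, beside 5705 of all 27319 genes in either direction. By edgeR 60 and by DESeq2 68 members were higher and none lower. The share of all genes that edgeR and DESeq2 called is not given here, so these counts cannot be set against it. The median log2 fold change was 0.27 (quartiles 0.24 and 0.30, on the log2(value + 1) scale), against -0.0033 for the 15245 genes that averaged 10 or more counts, and 69 of the 82 lay between 0.2 and 0.4. With the sample number fitted as a replicate block, 72 members were higher and 0 lower, against 8.68% and 8.02% of all genes. All 4 aldosterone libraries stood above all 4 vehicle libraries for 50 of the 82, which was so for 7.55% of all genes. The study also required a 2-fold change, and no member passed both thresholds, against 2.06% of all genes.

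The count depended on the libraries in the fit. When 1 library was left out, 43 genes were higher without aldosterone 1_1, but only 22, 9, 15 and 12 without vehicle 1_1, 1_2, 2_1 and 2_2, and 5, 7 and 7 without aldosterone 1_2, 2_1 and 2_2. The median log2 fold change stayed between 0.21 and 0.31 in these fits. It was 0.18 in the libraries of sample number 1 and 0.35 in those of sample number 2, 2 against 2 each, where no gene passed. The share of all genes called in these smaller fits is not given here, so the lower counts cannot be set against it. *Rpl4*, *Rpl13*, *Rpl17*, *Rplp0* and *Rps18* passed whichever library was left out, and *Rpl4* and *Rps18* are named because of this.

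Among large subunit genes, 39 of 50 rose. *Rplp0*, the scaffold of the stalk and a common reference gene in quantitative PCR, had 47226, 45435, 46173 and 41514 normalised counts with vehicle and 53333, 60268, 56562 and 58582 with aldosterone. All 4 aldosterone libraries were above the vehicle libraries, and its log2 fold change was 0.34 ± 0.07 (SE, limma, adjusted p = 0.00263). The 2 other stalk genes also rose, with log2 fold changes of 0.35 ± 0.08 for *Rplp1* (adjusted p = 0.00536, limma) and 0.33 ± 0.07 for *Rplp2* (adjusted p = 0.00384, limma). *Rpl13*, a core large subunit gene, had 22061, 20486, 20597 and 18448 counts with vehicle and 24740, 28609, 26262 and 26296 with aldosterone. Its groups were also apart, and its log2 fold change was 0.38 ± 0.07 (limma, adjusted p = 0.0011). *Rpl35a* rose with overlapping groups (0.36 ± 0.11, adjusted p = 0.0421, limma), and was above 0.05 in at least 1 fit without a library (adjusted p up to 0.299).

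The 3 genes with the largest values also varied between libraries of a treatment. *Rpl21* had 1397, 1578, 897 and 879 normalised counts with vehicle and 2367, 2532, 1931 and 1335 with aldosterone. The highest vehicle library was above the lowest aldosterone library, and within each treatment both libraries of sample number 2 were below those of sample number 1. Its log2 fold change was 0.79 ± 0.19 (limma, adjusted p = 0.013). *Rpl17* had 2477, 2068, 2133 and 1775 counts with vehicle and 2689, 3108, 3668 and 3115 with aldosterone, and these groups did not overlap (0.57 ± 0.10, adjusted p = 0.000681, limma). *Rpl7a* had 2875, 2850, 2168 and 2173 counts with vehicle and 3252, 2813, 3837 and 4608 with aldosterone (0.52 ± 0.13, adjusted p = 0.0144, limma). Both aldosterone libraries of sample number 2 were well above those of vehicle, and those of sample number 1 overlapped with vehicle. All 3 genes have retrocopies with reads of their own, described with the copies.

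Among small subunit genes, 20 of 32 rose. The median log2 fold change was 0.26 (quartiles 0.23 and 0.27) for the small and 0.28 (quartiles 0.24 and 0.32) for the large subunit. *Rps29*, a short zinc-binding protein gene, had 2234, 2232, 2225 and 1974 normalised counts with vehicle and 2397, 2697, 2658 and 3510 with aldosterone (0.36 ± 0.09, adjusted p = 0.0155, limma). The vehicle libraries were tight and the aldosterone libraries all lay above them. *Rps4x*, an X-linked member, rose by 0.26 ± 0.06 (adjusted p = 0.0154, limma), and *Rps3a1* by 0.24 ± 0.07 (adjusted p = 0.0301, limma). *Rps19*, which is mutated in the inherited anaemia of Diamond and Blackfan, rose by 0.27 ± 0.07 (adjusted p = 0.0115, limma). *Rpsa*, which encodes a small subunit protein also known as the laminin receptor, had 30001, 27837, 26917 and 23446 counts with vehicle and 30707, 34677, 30775 and 30845 with aldosterone. The groups did not overlap, and it passed with the replicate block but not without the block (0.23 ± 0.08, adjusted p = 0.0606 without the block and 0.000346 with it, limma). *Rps12* was 0.15 ± 0.11 and *Rpl13a* 0.11 ± 0.07, and neither passed (adjusted p = 0.5 and 0.449, limma).

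**Figure D2:**
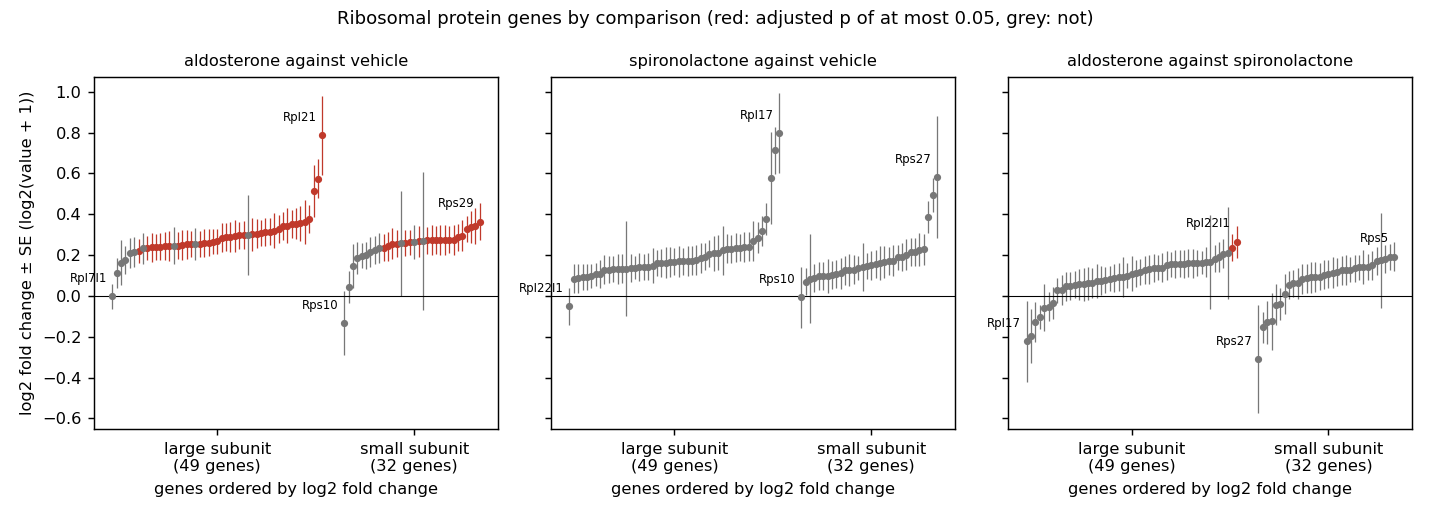
Log2 fold changes of 81 ribosomal protein genes (without *Rpl3l*) with their SE (vertical axis) in the 3 comparisons, genes ordered by value within each subunit (horizontal axis), with those at an adjusted p of at most 0.05 in red. With aldosterone against vehicle the points form a flat shelf near 0.27 in both subunits, with *Rpl21* at 0.79 on top and *Rps10* at -0.13 at the bottom, and against vehicle the grey points of spironolactone lie lower, near 0.16.

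None of the 5 paralogues passed the test. *Rpl7l1*, a relative of *Rpl7* that is known to act in ribosome assembly, had 2124, 2226, 2041 and 1962 normalised counts with vehicle and 1926, 2208, 2051 and 2171 with aldosterone. The groups overlapped almost fully, with a log2 fold change of -0.0004 ± 0.06 (adjusted p = 0.998, limma), while its partner *Rpl7* rose by 0.26 ± 0.06 (adjusted p = 0.0138, limma). *Rps27l*, a p53-induced relative of *Rps27*, had 2830, 2689, 2704 and 2227 counts with vehicle and 2371, 2774, 2731 and 2904 with aldosterone (0.05 ± 0.08, adjusted p = 0.8, limma). *Rpl39l*, best known from the testis, had 181, 176, 224 and 195 counts with vehicle and 205, 201, 218 and 247 with aldosterone (0.16 ± 0.11, adjusted p = 0.466, limma), and *Rpl39* rose by 0.29 ± 0.08 (adjusted p = 0.0236, limma). *Rpl22l1*, which can stand in for *Rpl22*, was 0.21 ± 0.07 without passing (adjusted p = 0.0893, and 0.0139 with the replicate block, limma), beside 0.22 ± 0.06 for *Rpl22* (adjusted p = 0.02, limma). *Rpl3l* stayed at the floor in all groups, and *Rpl3* and *Rpl10* rose by 0.24 ± 0.07 and 0.25 ± 0.06 (adjusted p = 0.0265 and 0.0153, limma). No test of the difference between a paralogue and its partner was made.

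**Figure D3:**
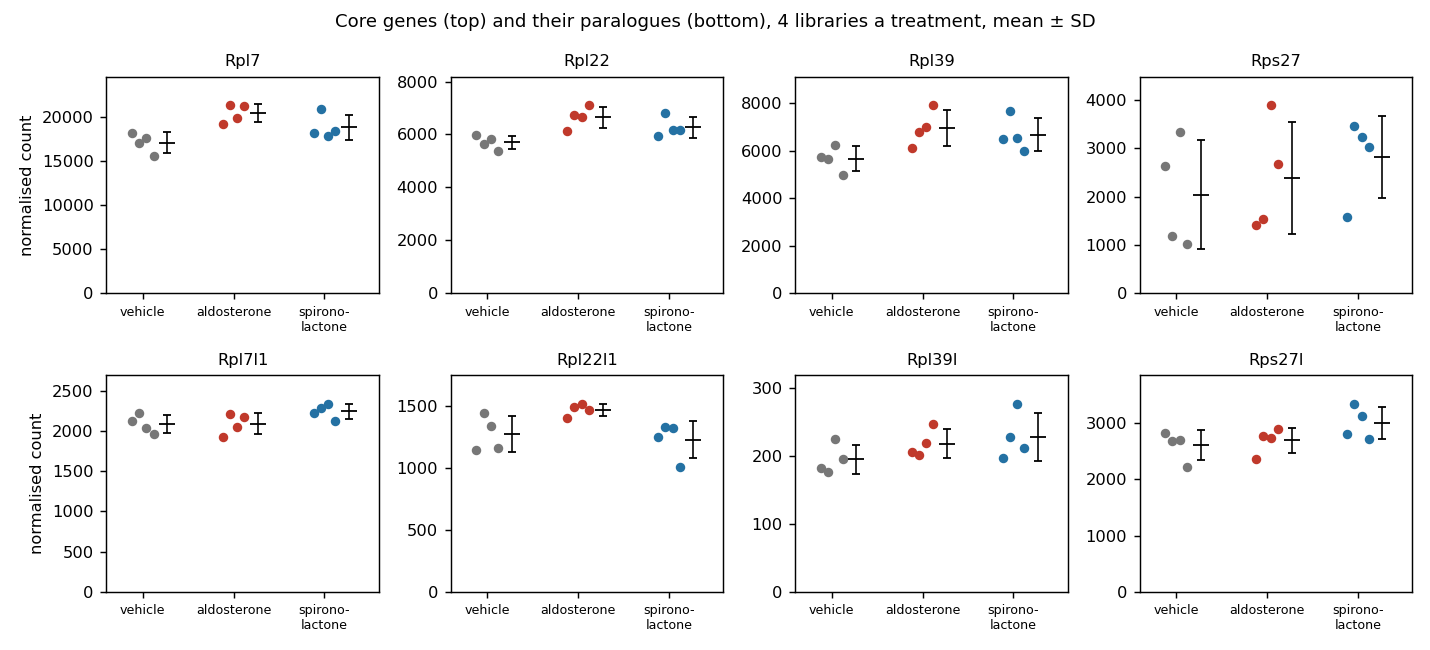
Normalised counts (vertical axes, from 0) of 4 core genes (top) and their paralogues (bottom) in the 4 libraries of each treatment, with the mean and SD beside the points. *Rpl7* is higher with aldosterone (19230 to 21300) than with vehicle (15526 to 18222), *Rpl7l1* is not (1926 to 2208 against 1962 to 2226), and *Rps27* scatters from 1018 to 3882.

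The genes with the most scatter between libraries included those with many reads on retrocopies. The tables list 185 named copies of 53 of the members, namely *Rps27rt* and 184 pseudogenes named after a member, and these copies held 3.97% to 4.57% of the reads on members and copies. The share was over 10% for 11 members and over 50% for *Rps10* (97.8%), *Rpl17* (72.5%) and *Rpl21* (54.1%). GENCODE M1 places *Rps27rt* at chr9:114891515-114891858 of NCBIM37, and it held all 255 coding bases of *Rps27* with no difference. *Rps12-ps3* likewise held all 399 coding bases of *Rps12*. *Rpl17-ps10* differed from *Rpl17* at 4 of 555 coding bases, with an identical stretch of 403 bases, and *Rpl21-ps15* differed from *Rpl21* at 3 of 483. The first of these 3 differences is T336C, counted from 1 at the first coding base, with the base of *Rpl21* first. It is shown in capitals within coding bases 322 to 351, because it is the only base of this window in which the 2 loci differ.
Rpl21: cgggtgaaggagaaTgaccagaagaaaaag
Rpl21-ps15: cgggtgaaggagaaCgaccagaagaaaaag

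Across libraries some genes were low where a copy was high. *Rps27* had 2630, 1192, 3323 and 1018 normalised counts with vehicle, and *Rps27rt* had 1618, 2845, 1014 and 2298 in the same libraries. With aldosterone the values were 1410, 1534, 3882 and 2675 for *Rps27* and 2923, 3327, 775 and 3060 for *Rps27rt*. The 2 vehicle libraries with the most *Rps27* had the least *Rps27rt*, and aldosterone 2_1 was the highest for *Rps27* and the lowest for *Rps27rt*, while in aldosterone 2_2 both were high. *Rps27* spanned 3.81-fold over the 12 libraries while the sum of *Rps27* and its copies spanned 1.73-fold. *Rpl17* stood at 5890 in spironolactone 1_1, where *Rpl17-ps10* had 1966, and at 1775 to 4422 in the other libraries, where the copy was at 4454 to 6667. The span of *Rpl17* was 3.32-fold and that of the sum with its 8 copies 1.49-fold. *Rps10* had 79.2 to 116 counts, while *Rps10-ps2* had 3138 to 4697. *Rps27a*, which encodes ubiquitin fused to a small subunit protein, was picked out after its values were seen. It stood at 6136 in vehicle 2_2, 7807 in aldosterone 2_1 and 5829 in spironolactone 1_1 and at 2740 to 3539 elsewhere, and only 8.56% of its reads lay on named copies.

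With each member summed with its copies, a choice made after seeing the data, 61 of the 82 genes were higher with aldosterone than with vehicle and 0 were lower. The share of all genes called in that fit is not given here. Of the genes with a large share of reads on copies, *Rps10* went from -0.13 ± 0.16 (adjusted p = 0.69, limma) to 0.31 (adjusted p = 0.00812), and *Rps27* from 0.27 ± 0.34 (adjusted p = 0.71) to 0.30 (adjusted p = 0.0441). *Rpl17* went from 0.57 to 0.26 (adjusted p = 0.0335, limma) and *Rpl21* from 0.79 to 0.46 (adjusted p = 0.00342), while *Rpl7a*, with 15.1% of its reads on copies, stayed at 0.49 (adjusted p = 0.0113). *Rps12*, with 32.4% of its reads on copies, went from 0.15 to 0.19 and still did not pass (adjusted p = 0.244, and 0.0398 with the block, limma). As no strand or multimapping setting is stated, the reads of these genes and their copies cannot be told apart with certainty.

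**Figure D4:**
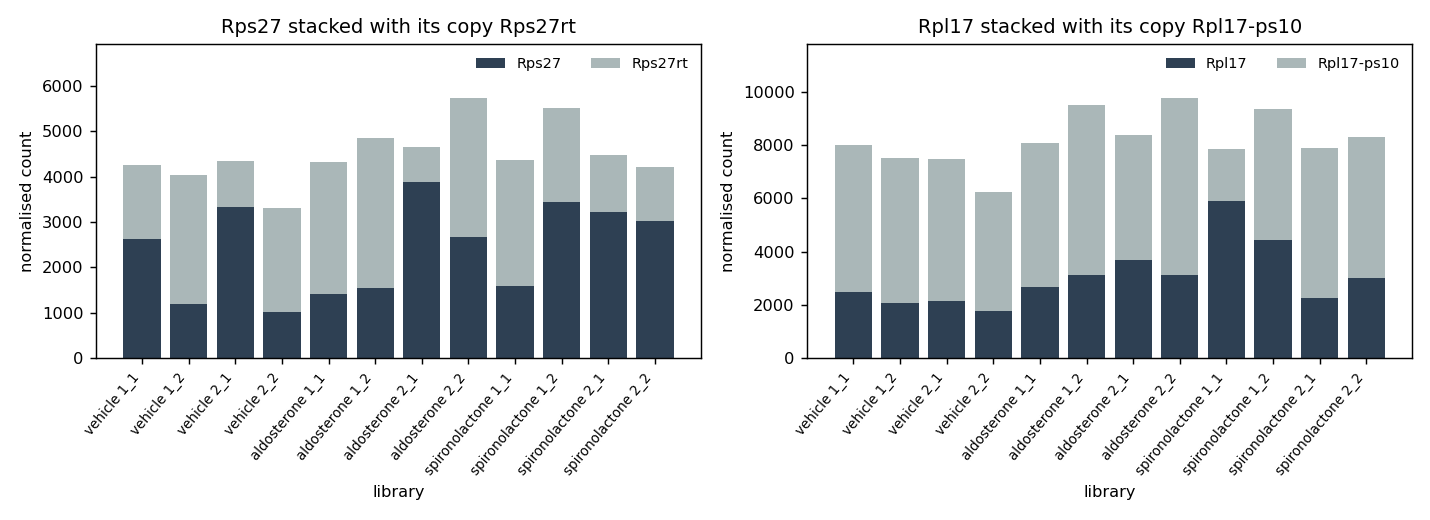
Normalised counts (vertical axes, from 0) of *Rps27* stacked with *Rps27rt* (left) and of *Rpl17* stacked with *Rpl17-ps10* (right) in each of the 12 libraries (horizontal axes). The dark part of a bar swings from library to library, from 1018 to 3882 for *Rps27* and from 1775 to 5890 for *Rpl17*, and the height of the whole bar varies less.

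The second question was whether the antagonist alone changed these genes. With spironolactone against vehicle, limma called 0 of the 82 genes higher and 0 lower, as it did over all 27598 genes (0% in either direction). At an unadjusted p under 0.05, 47 members were higher and 0 lower, out of 1251 genes of the table. Of the members, edgeR called 0 and DESeq2 called 3, *Rps28*, *Rps29* and *Rpl38*, and their shares over all genes are not given here. The median log2 fold change of the members was 0.16 (quartiles 0.13 and 0.21), against 0.00060 for the 15226 genes at that level, and 80 of the 82 were above 0. All 4 spironolactone libraries stood above all 4 vehicle libraries for 16 of the 82, which was so for 1.39% of all genes. Fitted with the replicate block, limma called 21 members higher, 15 of the large and 6 of the small subunit, and 0 lower, against 0.228% of all genes higher and 0.123% lower. No gene of the table passed both thresholds of the study (0%). The median was 0.10 without vehicle 2_2 and 0.11 without spironolactone 1_2. This comparison and the first share the vehicle libraries, so their values are given side by side and not as 2 separate results.

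Several short members were among the highest with spironolactone. *Rps29*, 171 coding bases long, had 3146, 3503, 3125 and 2496 normalised counts against 2234, 2232, 2225 and 1974 with vehicle. The groups did not overlap, and the log2 fold change was 0.49 ± 0.08 (limma, adjusted p = 0.117, and 4.51e-07 with the block). *Rpl38*, 213 coding bases long, had 2927, 3475, 2956 and 2609 counts against 2484, 2247, 2368 and 2096 with vehicle, again without overlap (0.38 ± 0.08, adjusted p = 0.333, and 6.77e-05 with the block, limma). With aldosterone against vehicle *Rpl38* was 0.25 ± 0.09 (adjusted p = 0.111, and 0.0104 with the block, limma). *Rpl36*, the shortest gene of the set at 383 bases, was 0.32 ± 0.07 with spironolactone (adjusted p = 0.65, and 0.000772 with the block, limma) and rose by 0.34 ± 0.08 with aldosterone (adjusted p = 0.0128, limma). *Rpl17*, *Rpl7a*, *Rps27* and *Rpl21*, with retrocopies, had the largest values of all, 0.80, 0.71, 0.58 and 0.58, and among these *Rpl7a* had groups that did not overlap (2168 to 2875 with vehicle, 3439 to 5156 with spironolactone). *Rpl17* had 5890, 4422, 2253 and 3007 counts with spironolactone, and an adjusted p of 0.791, and 9.09e-07 with the block (limma). As limma draws its variance toward that of other genes, the latter does not measure the scatter of *Rpl17* alone. Summed with its copies, *Rpl17* was at 0.15 (adjusted p = 0.935, and 0.236 with the block, limma) and *Rpl7a* at 0.63 (adjusted p = 0.128, and 4.87e-07 with the block).

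The relation to length was examined over the 81 members that averaged 10 or more counts. Gene length, the summed exons in the tables, ranged from 383 to 6270 bases. The coding length was the longest coding sequence among the transcripts of a gene in GENCODE M1, which need not be the main one. It was found for 80 of the 82 genes and ranged from 156 to 1272 bases, the latter for *Rpl13a*. With spironolactone against vehicle, Spearman's rho across genes of the log2 fold change with coding length was -0.62 (Pearson's r = -0.34, 79 genes). With gene length it was -0.25 (r = -0.23, 81 genes). The 26 members with the shortest coding sequences had a median log2 fold change of 0.22, and the 26 with the longest one of 0.12. With aldosterone against vehicle rho was -0.23 with coding length (r = -0.08) and 0.04 with gene length (r = 0.03), and the same medians were 0.28 and 0.25. With aldosterone against spironolactone rho was 0.39 with coding length (r = 0.35) and 0.28 with gene length (r = 0.32). Without the paralogues the 3 values of rho with coding length were -0.64, -0.32 and 0.42 in the same order.

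Genes are not independent replicates, and all points of a comparison share the same libraries, so these are descriptions. The same relation over all protein-coding genes at that level gave a rho of -0.25 with coding length for spironolactone against vehicle (12723 genes), -0.16 for aldosterone against vehicle and -0.06 for aldosterone against spironolactone. The other protein-coding genes of 156 to 399 coding bases, the range of the shortest 26 members, had a median log2 fold change of 0.07 with spironolactone and 0.10 with aldosterone, each against vehicle (533 and 536 genes). The longest genes of the set were near the median. *Rps15a*, *Rps24* and *Rps19* were at 0.27, 0.30 and 0.27 with aldosterone and at 0.17, 0.17 and 0.16 with spironolactone, each against vehicle.

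**Figure D5:**
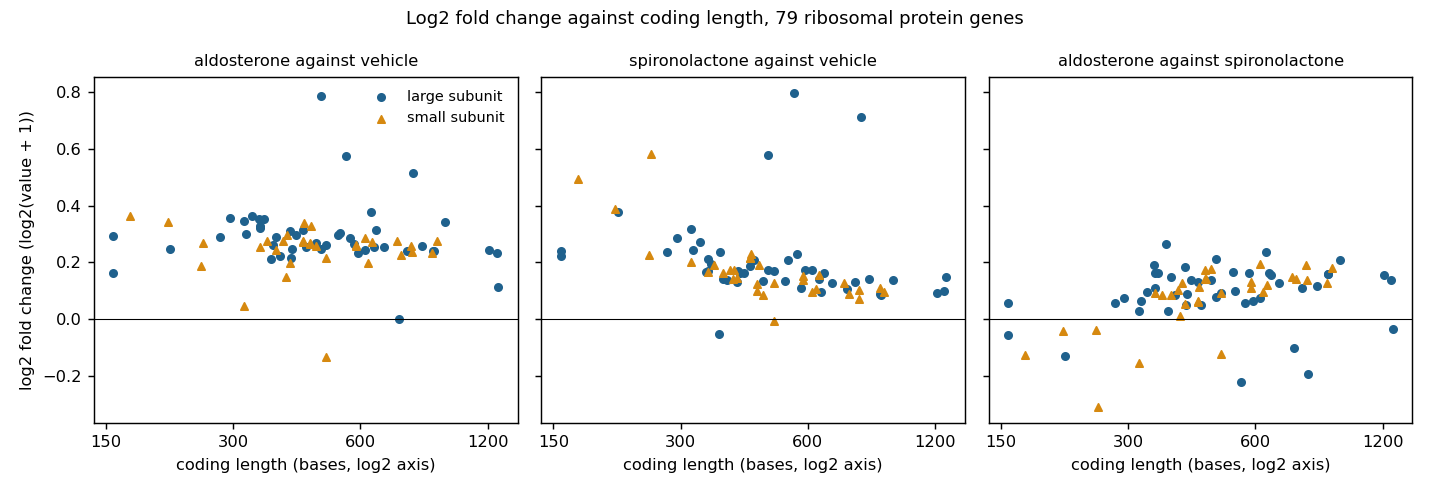
Log2 fold change (vertical axis) against coding length in bases (horizontal axis, log2 scale) of 79 ribosomal protein genes, large subunit in blue and small subunit in orange, in the 3 comparisons. The cloud falls with length for spironolactone against vehicle (rho = -0.62), falls less for aldosterone against vehicle (rho = -0.23) and rises for aldosterone against spironolactone (rho = 0.39).

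Aldosterone was then compared with spironolactone, both at 1 µM for 48 hours. Here 2 of the 82 genes were higher with aldosterone and 0 lower by limma, against 4.93% and 3.96% of the 27631 genes tested. At an unadjusted p under 0.05, 23 members were higher and 0 lower, beside 5175 of all 27631 genes in either direction. Of the members, edgeR called 3 and DESeq2 5 higher and neither called any lower, and their shares over all genes are not given here. The median log2 fold change was 0.11 (quartiles 0.06 and 0.15), with 69 of the 82 above 0. Over the 15300 genes that averaged 10 or more counts the median was -0.0043, with 49.1% above 0. The member median was 0.02 in the libraries of sample number 1 and 0.18 in those of sample number 2, 2 against 2 each, where no member passed. No member passed both thresholds, against 1.9% of all genes. For 2 members all aldosterone libraries were above all spironolactone libraries, *Rpl22l1* and *Rplp2*, against 6.76% of all genes. In the fit with the block 21 members were higher, 15 of the large and 6 of the small subunit, and 0 lower, against 7.58% and 6.8% of all genes.

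*Rpl22l1* had 1396, 1486, 1515 and 1464 normalised counts with aldosterone and 1247, 1329, 1319 and 1006 with spironolactone. Its log2 fold change was 0.27 ± 0.08 (limma, adjusted p = 0.044), and 3 of its 4 spironolactone libraries lay within the range of vehicle (1139 to 1444). *Rpl13* was higher by 0.24 ± 0.07 (adjusted p = 0.0352, limma), with 21218 to 24914 counts with spironolactone and 24740 to 28609 with aldosterone, where 1 library of each group overlapped. Without spironolactone 1_2, 8 members were higher, and without any 1 of the other 7 libraries 0 were. *Rpl22l1* passed in none of these 8 fits (adjusted p of 0.0836 to 0.245, limma), and *Rpl13* had adjusted p of 0.0284 to 0.177. The stalk genes were at 0.21 ± 0.07 for *Rplp0*, 0.19 ± 0.07 for *Rplp1* and 0.16 ± 0.05 for *Rplp2* and passed with the block but not without it (adjusted p = 0.0931, 0.146 and 0.0794 without it and 0.00277, 0.0106 and 0.00679 with it, limma). *Rps4x* was at 0.19 ± 0.06 (adjusted p = 0.0757, and 0.0027 with the block, limma), and *Rpl10* and *Rpl3* were at 0.16 each (adjusted p = 0.153 and 0.161, and 0.0137 and 0.0168 with the block). *Rps27*, *Rpl17* and *Rpl7a* were lowest, at -0.31, -0.22 and -0.19 (adjusted p = 0.616, 0.638 and 0.502, limma). Summed with its copies *Rps27* was at 0.07 and *Rpl17* at 0.11. For large and small subunit genes alike the median was 0.11.

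Other genes of the translation apparatus, on lists chosen by function, moved less uniformly with aldosterone against vehicle. Over all genes tested in this comparison, 5.68% were higher and 4.74% lower. *Fau*, which encodes a small subunit protein as a fusion, rose by 0.32 ± 0.06 (7467 ± 509 to 9322 ± 530 normalised counts, SD, n = 4, adjusted p = 0.0025, limma), and of the 5 ribosomal protein genes outside the name rule it was the 1 that passed. *Rack1* was at 0.21 ± 0.07 (adjusted p = 0.0518, and 0.000797 with the block, limma). Of 34 initiation and elongation factors 7 rose and 0 fell, with a median of 0.07. *Eif4b*, which aids the unwinding helicase at the cap, rose by 0.33 ± 0.05 (adjusted p = 0.000432, limma), *Eef1b2* by 0.30 ± 0.07 and *Eif3f* by 0.24 ± 0.05 (adjusted p = 0.00835 and 0.00749, limma). Of 12 listed snoRNA host genes, several of which are known for TOP starts, 11 were in the table, and of these 4 rose and 0 fell, led by *Zfas1* (0.42 ± 0.10), *Gas5* (0.32 ± 0.08) and *Epb41l4aos* (0.39 ± 0.11), with adjusted p of 0.00936, 0.013 and 0.0287 by limma. The 184 pseudogenes had a median of 0.25 over the 174 in the table. Of these 8 were higher, a smaller share than over all genes, and 0 lower. With the block 25 were higher, a larger share than the 8.68% of all genes, and 2 lower, beside 8.02% of all genes. A mean of at least 10 counts was reached by 78 of them.

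Genes that build ribosomes in the nucleolus and genes of the mitochondrial ribosome are to be read beside the share of all genes, 5.68% higher and 4.74% lower. Of 45 ribosome biogenesis genes 2 rose and 1 fell, with a median of -0.03. *Rrp1* and *Sbds*, both of large subunit assembly, rose by 0.24 ± 0.05 and 0.26 ± 0.07 (adjusted p = 0.00321 and 0.0138, limma), and *Utp20* of the small subunit processome fell by 0.22 ± 0.07 on the log2 scale (adjusted p = 0.0425). Of 77 genes of the mitochondrial ribosome 3 rose and 0 fell, with a median of 0.07, and *Mrps6* rose by 0.49 ± 0.10 (adjusted p = 0.0026, limma), *Mrpl34* by 0.31 ± 0.07 and *Mrpl36* by 0.26 ± 0.08 (adjusted p = 0.00827 and 0.0409, limma). The medians of the factors, the biogenesis genes and the mitochondrial ribosome with spironolactone against vehicle were 0.04, 0.05 and 0.10, with 0 genes passing. With aldosterone against spironolactone they were 0.06, -0.08 and -0.01, with 2, 1 and 0 genes higher and 0 lower in each list. Over all genes of that comparison, 4.93% were higher and 3.96% lower. With the block, 6, 2 and 2 genes of these lists were higher and 3, 9 and 1 lower, against 7.58% and 6.8% of all genes. Of the 45 biogenesis genes, 8 had a log2 fold change above 0 there.

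Some regulators of these messenger RNAs had larger values. Of 32 genes of growth signalling to translation, 10 rose and 3 fell with aldosterone against vehicle, beside 5.68% and 4.74% of all genes. *Deptor*, an inhibitor within the mTOR complexes, had 245, 239, 299 and 286 normalised counts with vehicle and 840, 772, 934 and 968 with aldosterone, a log2 fold change of 1.71 ± 0.09 (adjusted p = 2.69e-09, limma). *Sesn1*, an inhibitor of mTOR complex signalling, rose by 1.01 ± 0.09 (596 ± 31.7 to 1212 ± 189 counts, adjusted p = 1.41e-06, limma) and *Mknk2*, a kinase of the cap-binding protein, by 0.48 ± 0.07 (adjusted p = 8.03e-05, limma). *Mtor* itself rose by 0.33 ± 0.06 (adjusted p = 0.00199), *Ddit4*, another mTOR inhibitor, by 0.26 ± 0.06 (adjusted p = 0.00715), and *Myc*, a transcription factor that drives ribosomal genes, by 0.38 ± 0.08 (adjusted p = 0.00395, limma). *Larp1*, which binds TOP messages, fell by 0.20 ± 0.06 on the log2 scale (5569 ± 250 to 4849 ± 340 counts, adjusted p = 0.0399, limma), and *Eif4ebp1* was at 0.07 ± 0.06 (adjusted p = 0.568). Unlike *Sesn1*, *Sesn2*, which is on the same list, fell, at -0.30 (adjusted p = 0.00941, limma). With spironolactone against vehicle none of the 32 passed, and *Deptor*, *Sesn1*, *Mtor* and *Myc* were at -0.14, -0.09, 0.02 and 0.18. Of 10 p53 pathway genes 0 rose and 3 fell with aldosterone against vehicle, beside the same shares of all genes. The 3 were *Sesn2*, *Zmat3* and *Trp53*, at -0.30, -0.26 and -0.22 (adjusted p = 0.00941, 0.0112 and 0.0167, limma).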

How the data were processed

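Per the labels, poly(A) libraries of 12 fibroblast plates were sequenced, and the submitters' processing notes name HISAT2 2.0.5, featureCounts 1.5.0-p3 and mm39. The study's methods name DESeq2 and another mouse build, and the strand and multimapping settings are not given in the sources used here. The positions in the tables did not match NCBIM37, where 39 of 20676 genes had the same start. The values used here are a normalised signal that the authors deposited per gene and library, read counts divided by a size factor, in 1 table for each pair of treatments. Their group means, fold changes and p-values were not used.

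The value of 1 read in each column was found from its low values, and dividing by it gave the reads (100% of values whole). For 2 columns whose step was too close to 1, reads came from the library's other table. Tests were made with limma (3.58.1) on log2(value + 1) with a mean-variance trend over all genes of a pair's table, with Benjamini-Hochberg adjustment, for 3 comparisons of 4 against 4 libraries. The variance of each gene is thereby drawn toward that of genes at a similar level, with or without the block. For a gene that scatters more than those, the p-value understates its own spread. Counts in all 12 libraries are the recovered reads divided by median-of-ratios size factors of the 12, and levels per kilobase use the library totals. The tests were checked on simulated counts of independent libraries, with changes larger than those of the members. The simulation held no shift shared by the members of a library and no pairing by mouse. It therefore does not bear on the calls for the members. Deviations from the treatment means, taken over 15287 genes, were correlated between treatments for libraries that share a sample number (24 pairs, r of 0.133 to 0.284, mean 0.219) and not for those that share a biological replicate number (mean r = -0.00527). The sample number therefore served as the block.

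The members and lists were chosen with earlier results of these data known. Named were the paralogues and their partners, the stalk genes and *Rpsa*, the 6 largest and smallest fold changes with aldosterone against vehicle and 3 in each other comparison among members with a mean of at least 10, the 3 longest, 3 shortest and 3 most abundant genes, and 3 genes of each other list by p, of which 1 is not reported here. Alternatives were edgeR (4.0.16) and DESeq2 (1.42.0) on the recovered reads, other scalings, pseudocounts and filters, a length correction (lowess span 0.3), the block, and leaving out libraries. Summing members with their copies was added after seeing the data. R was version 4.3.3.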

Additional observations from a re-analysis of the deposited data

Results flagged for a closer look

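Single libraries of a treatment stood far from the other 3 in 9 of the 93 groups of 4 libraries examined for the named members, by Dixon's criterion, which marks about 1 in 20 groups by chance. In spironolactone 1_2, the library with the most reads of its group, *Rplp0* (54773 normalised counts), *Rpl3* (22146), *Rps3a1* (22292), *Rps24* (14870) and *Rpsa* (33056) were all above the other 3 spironolactone libraries. *Rpsa* was also high in aldosterone 1_2 (34677). *Rps29* was low in vehicle 2_2 (1974), the library with the lowest median of all members. *Rpl3l* was at 1.98 in vehicle 1_2 and 4.03 in spironolactone 2_2, where the other libraries of the group were at 0, which are too few reads to describe.

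The response of *Rpl7a* to aldosterone differed between the sample numbers. Its log2 fold change against vehicle was 0.08 in the libraries of sample number 1 and 0.95 in those of sample number 2, a difference of 0.877 (limma interaction over all genes, adjusted p = 0.0337). Of the 82 members it was the 1 with such a difference at an adjusted p of 0.05 or less in these 3 comparisons, and 2 libraries stand behind each mean.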

How the results depend on the processing

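With aldosterone against vehicle the median log2 fold change of the members was between 0.183 and 0.349 over all alternatives, with 0.212 to 0.313 when 1 library was left out, and it was between 0.021 and 0.185 for aldosterone against spironolactone and between 0.102 and 0.195 for spironolactone against vehicle. Scaling to reads outside ribosomal protein and mitochondrial genes moved the median of all genes to -0.034 in the first comparison. The large minus small subunit difference was between -0.006 and 0.029 in all fits. The number of members higher with aldosterone than with vehicle was 5 to 43 when 1 library was left out and 0 in either sample number alone. Against spironolactone it was 0 to 8 with 1 library left out, 0 with scaling to reads outside ribosomal protein and mitochondrial genes and in either sample number alone, 1 in a fit of all 12 libraries, 5 by DESeq2, 21 with the replicate block, 24 with copies summed and the block, and, with the length trend removed and the block, 27 higher and 3 lower. With spironolactone against vehicle it was 3 by DESeq2, 21 with the block, 25 with the length trend removed and the block, and 19 with copies summed and the block. *Rps10* turned from -0.133 to 0.306 with copies summed, with or without the block. The cause of these changes was not tested. For fits other than the main one and the block, the share of all genes called is not given here. All 59 members called higher with aldosterone than with vehicle were also called with the block, and the block called 72 in all. Of the other values of single members and of the subunit difference, 1939 stayed on their side of the threshold, 187 lost it and 70 gained it.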
